A study of Mus musculus and Homo sapiens with 14 samples.

Results

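The 29 mouse genes described here encode the machinery that copies chromosomal DNA, supplies its building blocks and repackages the new strands. They were taken by symbol from a list of 7 MCM helicase genes, 7 GINS and origin licensing genes, 8 polymerase and clamp genes, 3 nucleotide synthesis genes and 4 chromatin assembly genes. All 29 were found among the 35288 gene identifiers of each of the 2 mouse tables, and all 29 passed the filter on low values (1 TPM in at least 2 libraries of a line) in both cell lines. In Oli-neu 28 of them reached 1 TPM in every library, whereas Ccne1 passed through the 2 libraries grown alone only, so that it had to differ. The members and the gene lists were chosen with earlier results of these data known, so that counts over them describe these genes and test nothing.

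RNA was sequenced from cell lines cultured singly or sharing medium with another line across a 30 mm insert with a porous membrane (0.4 µm pores), with 2 libraries per culture condition that the labels call biological replicates. The 5 mouse conditions were Oli-neu, a mouse line of oligodendrocyte precursor cells, beside the mouse tumour line MB1, Oli-neu beside the human Group 3 medulloblastoma line D341, Oli-neu alone, MB1 beside Oli-neu, and MB1 alone. MB1 came from tumours of Atoh1-cre:SmoM2 mice at postnatal day 12, in which Cre driven by Atoh1 switches on an active form of the hedgehog receptor component Smo. All cultures, the ones grown alone included, received EGF and basic FGF at 20 ng/mL, both mitogens, in a medium with B-27 and N-2 supplements. The values are TPM, a length-corrected share of the transcripts of a library, and these tables give no read counts, so the depth of the libraries is unknown.

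A cell copies its DNA once per cycle, in S phase. In G1, the origin recognition complex with Cdc6 and Cdt1 loads the ring of Mcm2 to Mcm7 onto DNA, and cyclin E-dependent kinase together with Cdc45 and the GINS complex turns that ring into a moving helicase. DNA polymerases, held by the Pcna clamp, then copy each strand, while ribonucleotide reductase and thymidylate synthase provide deoxynucleotides and chromatin assembly factors load histones behind the fork. Oligodendrocyte precursors divide under growth factors and leave the cycle when they differentiate, and hedgehog-driven medulloblastoma arises from dividing granule neuron precursors.

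Many S phase genes share short DNA strings near their start sites, which are shown first because the members were otherwise grouped by function alone. RefSeq promoter windows on the GRCm38.p6 build, each of 300 bases with 250 before and 50 from the start site on, were matched for 24 of the 29 genes (27 windows). The strings searched, on both strands, were TTTCCCGC, TTTGGCGC and TTTCGCGC, which are forms of the site of E2F factors, CCAAT, the site of NF-Y, and TTTGAA, the cell cycle homology region (CHR). Any of the 3 E2F strings occurred in 10 windows of 10 members, which was 37.0% of the members' windows, 3.63% of the 11186 windows of genes tested in Oli-neu and 1.84% of all 32851 windows. These 10 members were Mcm3, Mcm5, Mcm6, Mcm7, Cdc6, Cdt1, Rfc3, Pola1, Pold1 and Uhrf1. The NF-Y string occurred in 18 of the members' windows (66.7%), against 38.4% of the windows of genes tested in Oli-neu and 37.4% of all windows. The CHR string occurred in 3 of the members' windows (11.1%), those of Mcm2, Cdc45 and Fen1, and in 11.9% and 17.9% of the same sets of windows. A match shows only that the letters stand in the window.

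**Figure D1:**
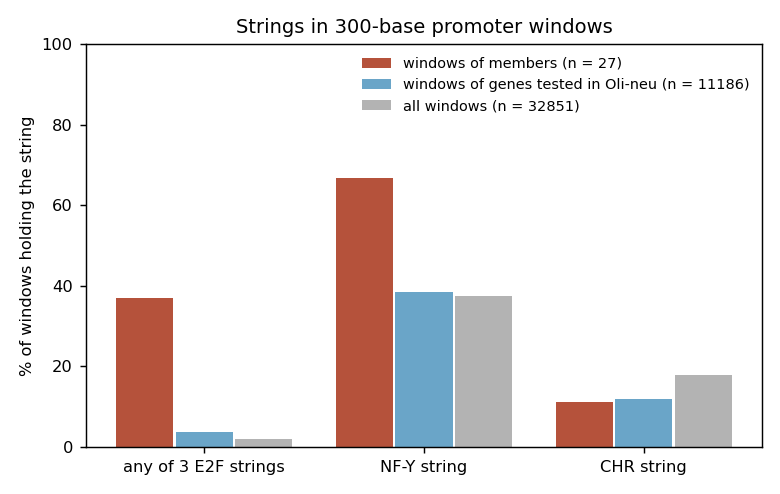
Percentage of 300-base promoter windows that hold any of 3 E2F strings, the NF-Y string or the CHR string on either strand, for the windows of the members, of genes tested in Oli-neu, and of all genes in the table. The members' bar stands at 37.0% for E2F, above 3.63% and 1.84%, and at 11.1% for CHR, near 11.9% and below 17.9%.

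Stretches of 7 promoters are printed on the strand of the gene, 5′ to 3′, with the matched strings in capitals. Fen1, Uhrf1, Mcm6, Rrm1 and Rrm2 had the smallest p in Oli-neu co-culture among members with a match, together with Cdt1, which is not printed. Mcm3 and Mcm7 were added after the search because they code for other subunits of the helicase ring and hold an E2F string in their windows. Mcm5, to which the same applies, is not printed. Reverse-strand matches read GCGCGAAA or GCGGGAAA for E2F, ATTGG for NF-Y and TTCAAA for the CHR string. The stretches lie at chr19:10204497-10204532 (minus strand) for Fen1, chr17:56304113-56304225 (plus strand) for Uhrf1, chr1:128359706-128359830 (minus strand) for Mcm6, chr7:102441589-102441669 (plus strand) for Rrm1 and chr12:24708189-24708223 (plus strand) for Rrm2. Those of Mcm3 and Mcm7 lie at chr1:20820325-20820444 and chr5:138171890-138172063, both on the minus strand. All precede the RefSeq start site of their window. Fen1, Uhrf1 and Mcm7 have 2 windows each. For Fen1 the one with the CHR string is shown. For Uhrf1 and Mcm7 it is the one with an E2F string, though their other windows also hold the NF-Y string. The stretches of Uhrf1 and Mcm7 lie inside the annotated span of their gene.
Fen1: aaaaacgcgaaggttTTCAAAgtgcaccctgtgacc
Uhrf1: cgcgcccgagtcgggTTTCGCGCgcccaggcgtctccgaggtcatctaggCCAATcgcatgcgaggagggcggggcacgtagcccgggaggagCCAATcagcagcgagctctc
Mcm6: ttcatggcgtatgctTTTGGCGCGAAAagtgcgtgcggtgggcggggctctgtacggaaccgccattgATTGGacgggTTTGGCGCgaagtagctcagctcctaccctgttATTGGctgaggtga
Rrm1: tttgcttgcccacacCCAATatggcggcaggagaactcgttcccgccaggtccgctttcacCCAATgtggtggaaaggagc
Rrm2: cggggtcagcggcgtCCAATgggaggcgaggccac
Mcm3: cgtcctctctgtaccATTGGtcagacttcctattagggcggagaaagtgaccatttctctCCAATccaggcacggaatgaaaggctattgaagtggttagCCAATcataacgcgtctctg
Mcm7: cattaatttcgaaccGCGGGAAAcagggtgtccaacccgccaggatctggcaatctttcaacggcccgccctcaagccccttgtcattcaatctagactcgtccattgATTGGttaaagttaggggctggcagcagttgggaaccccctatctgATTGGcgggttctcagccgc
In Mcm6 a forward and a reverse E2F string overlap, beginning at positions -110 and -106 from the start site, and a second forward string follows at -47. The stretches of Mcm6, Mcm7 and Uhrf1 each hold at least 1 E2F string and 2 NF-Y strings. Those of Rrm1, Rrm2 and Mcm3 hold NF-Y strings only, and the E2F strings of Mcm3 lie in its window outside the stretch shown.

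The libraries were checked against their labels. Oli-neu libraries held the oligodendrocyte lineage factor Sox10 at 171 to 235 TPM. MB1 libraries held the granule lineage factor Zic1 at 63.7 to 125 TPM and the hedgehog receptor Ptch1 at 14.2 to 18.4 TPM, but the defining granule precursor gene Atoh1 stood at 0 to 0.0143 TPM, Barhl1 at 0 and the hedgehog target Gli1 at 0.0822 to 0.178 TPM, so that MB1 is called by its line name here. MB1 also held the oligodendrocyte lineage factors Olig1 at 455 to 833 TPM and Olig2 at 151 to 246 TPM. In MB1 the 9 oligodendrocyte lineage markers summed to 808 and 673 TPM beside Oli-neu and 994 and 1165 TPM alone, 6 astrocyte markers to 509.9 and 507 TPM beside Oli-neu and 434 and 397 TPM alone, and 10 granule precursor markers to 169 and 195 TPM beside Oli-neu and 150.1 and 133 TPM alone. These sums were apart between the 2 MB1 groups, and their part in the results for MB1 was not tested. The largest part of each was 1 gene, Olig1, Slc1a3 and Zic1 in turn. Single markers could go against the sum of their list. Among the granule precursor markers, Pax6 had 18.6 and 22.2 TPM beside Oli-neu and 22.7 and 25.4 TPM alone. Gli2 and Mycn, both under 1 TPM, were also lower beside Oli-neu. Zic2 was higher there, at 29.4 and 30.3 TPM against 22.6 and 28.2 TPM alone. The 5 microglia markers summed to at most 0.690 TPM in any mouse library. Transcripts from annotated pseudogenes took 25.2% to 26.8% of TPM in MB1 and 36.0% to 38.2% in Oli-neu, and mitochondrially encoded genes took 5.73% to 9.56% in MB1 and 1.93% to 4.53% in Oli-neu. Same-numbered Oli-neu libraries deviated from their group means together, with correlations across 12280 genes of 0.614, 0.618 and 0.593, where genes are not independent replicates.

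Oli-neu cells beside the tumour lines had a lower mean log2 level than Oli-neu alone for every one of the 29 genes. Of all genes tested, 62.6% had a lower mean beside MB1, 75.8% beside D341 and 72.6% in the average over both partners. With libraries scaled by median ratios, Rfc3 and Slbp came out above 0 in that average. MB1 cells beside Oli-neu had a lower mean than MB1 alone for 28 of the 29, with or without that scaling, and without it for 70.9% of all genes tested. The 29 genes summed to 442 and 401 TPM in Oli-neu beside MB1, 489 and 440.4 TPM in Oli-neu beside D341, and 597 and 591 TPM in Oli-neu alone. In MB1 they summed to 775 and 819.9 TPM beside Oli-neu and 1307 and 1126 TPM alone. In each line, every co-culture sum was under every sum of the line alone. In bulk samples, fewer dividing cells and less of these transcripts per dividing cell cannot be told apart.

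**Figure D2:**
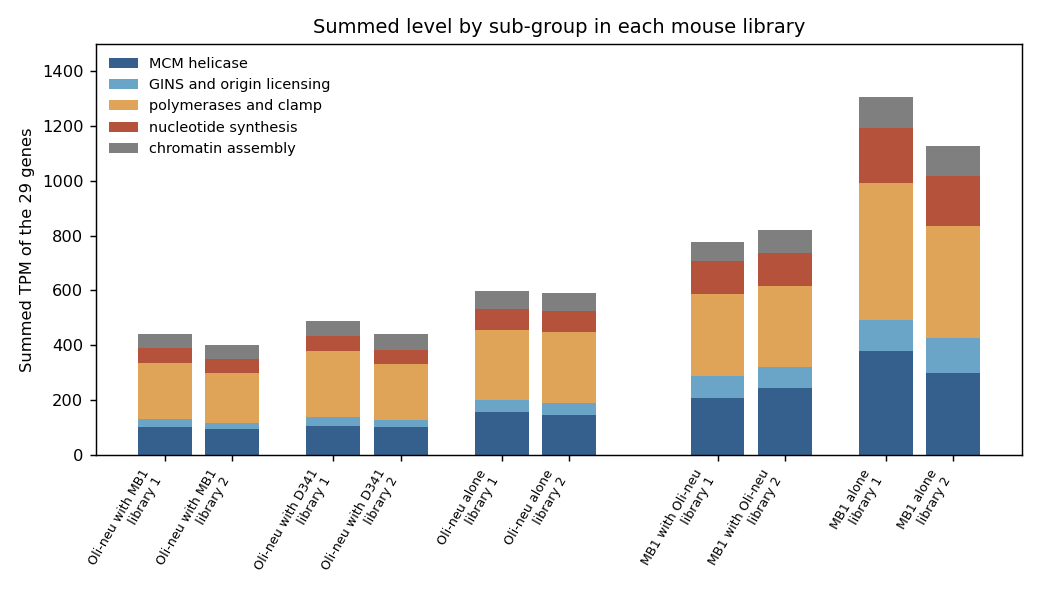
Summed TPM of the 29 genes in each of the 10 mouse libraries, stacked by sub-group, with each co-culture left of its monoculture. The co-cultured Oli-neu libraries reach 401 to 489 TPM and the monocultures 591 and 597 TPM, while MB1 reaches 775 and 819.9 TPM beside Oli-neu and 1307 and 1126 TPM alone.

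Single genes were tested with limma on log2(TPM + 1), over 12280 genes in Oli-neu and 12407 in MB1. No gene of either table, and so none of the 29, passed a Benjamini-Hochberg adjusted p of 0.05 in any of the 5 comparisons (percent called 0 in each). At an unadjusted p under 0.05, 19 of the 29 were lower in Oli-neu beside MB1, against 4.65% of all genes tested, and 12 in Oli-neu beside D341, against 12.1%. With both co-cultures averaged the count was 18, against 9.83%. Without Ccne1 these counts were 18, 12 and 17 of 28. In MB1 beside Oli-neu the count was 20 of the 29, against 12.6%. Without the first MB1 library grown alone, 68 genes passed the adjusted threshold in MB1, none of them a member, and without the second of these libraries 1 gene passed. Without the second Oli-neu library beside D341, 2 genes passed in that comparison.

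The size of the differences can be set beside that of all genes. The median log2 fold change of the 29 genes was -0.50 in Oli-neu beside MB1, where the median of all genes was -0.06. Beside D341 it was -0.41, with -0.16 for all genes, and in MB1 beside Oli-neu it was -0.68, with -0.17 for all genes. Scaling the libraries by median ratios brought the medians of all genes to 0.00 in both Oli-neu comparisons and to -0.0049 in MB1, and relative to that scale the medians of the 29 genes were -0.45, -0.25 and -0.49. On it, 29, 26 and 28 of the genes still had a lower mean, the exceptions being Rfc3, Slbp and Pold1 beside D341 and Pola1 in MB1. Within the libraries numbered 1 the medians of the 29 genes were -0.42, -0.36 and -0.76, and within those numbered 2 they were -0.54, -0.45 and -0.55. The 2 Oli-neu comparisons share the libraries grown alone, so that they do not repeat each other independently.

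**Figure D3:**
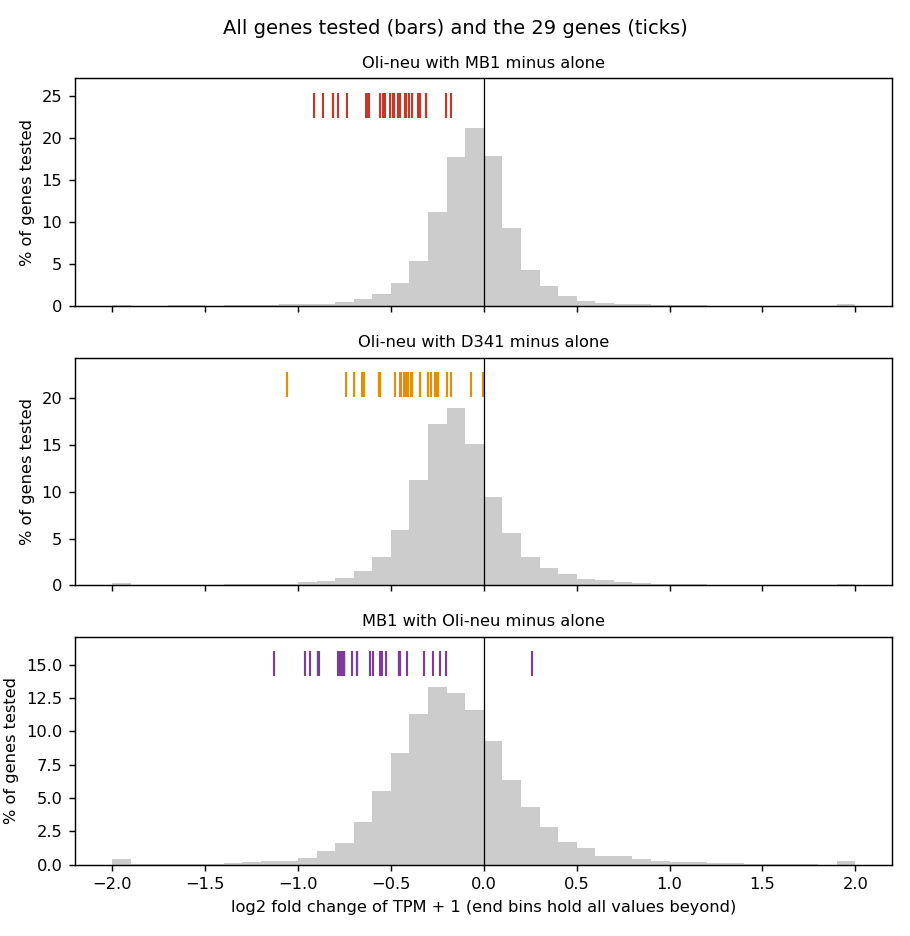
Distribution of the log2 fold change of TPM + 1 over all genes tested (bars, percentage of genes in bins of 0.1) with the 29 genes as ticks, for Oli-neu beside MB1, Oli-neu beside D341 and MB1 beside Oli-neu, each minus the same line alone. The ticks lie below 0 except for that of Pola1 in MB1 (with median-ratio scaling Rfc3, Slbp and Pold1 lie above 0 beside D341), and their medians are -0.50, -0.41 and -0.68.

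A gene was also counted where neither co-culture library reached either library grown alone. This held for 25 of the 29 genes in Oli-neu beside MB1, against 24% of all genes tested, for 23 beside D341, against 44%, and for 25 in MB1 beside Oli-neu, against 41.5%. All 4 co-cultured Oli-neu libraries lay below both monocultures for 22 of the 29, against 18.7%. Without Ccne1 the 3 Oli-neu counts were 24, 22 and 21 of 28. The separation from all 4 Oli-neu co-cultures and in MB1 was present together for 21 of the 29, against 11.8% of the 11182 genes tested in both lines. Ccne1, which had to differ in Oli-neu, is among these 21. The other 8 were Mcm2, Mcm4, Mcm10, Ccne2, Rfc3, Rfc4, Pola1 and Slbp. Of the 13 mitochondrially encoded genes, 13 had a higher mean in co-cultured Oli-neu and 11 in MB1 beside Oli-neu, none past the adjusted threshold. Their median log2 fold changes were 0.50 in Oli-neu and 0.45 in MB1, though their share of TPM overlapped between co-cultures and monocultures in both lines. Within the libraries numbered 1 these medians were 0.98 in Oli-neu and -0.14 in MB1, and within those numbered 2 they were 0.15 and 0.72. Their part in the result was not tested.

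**Figure D4:**
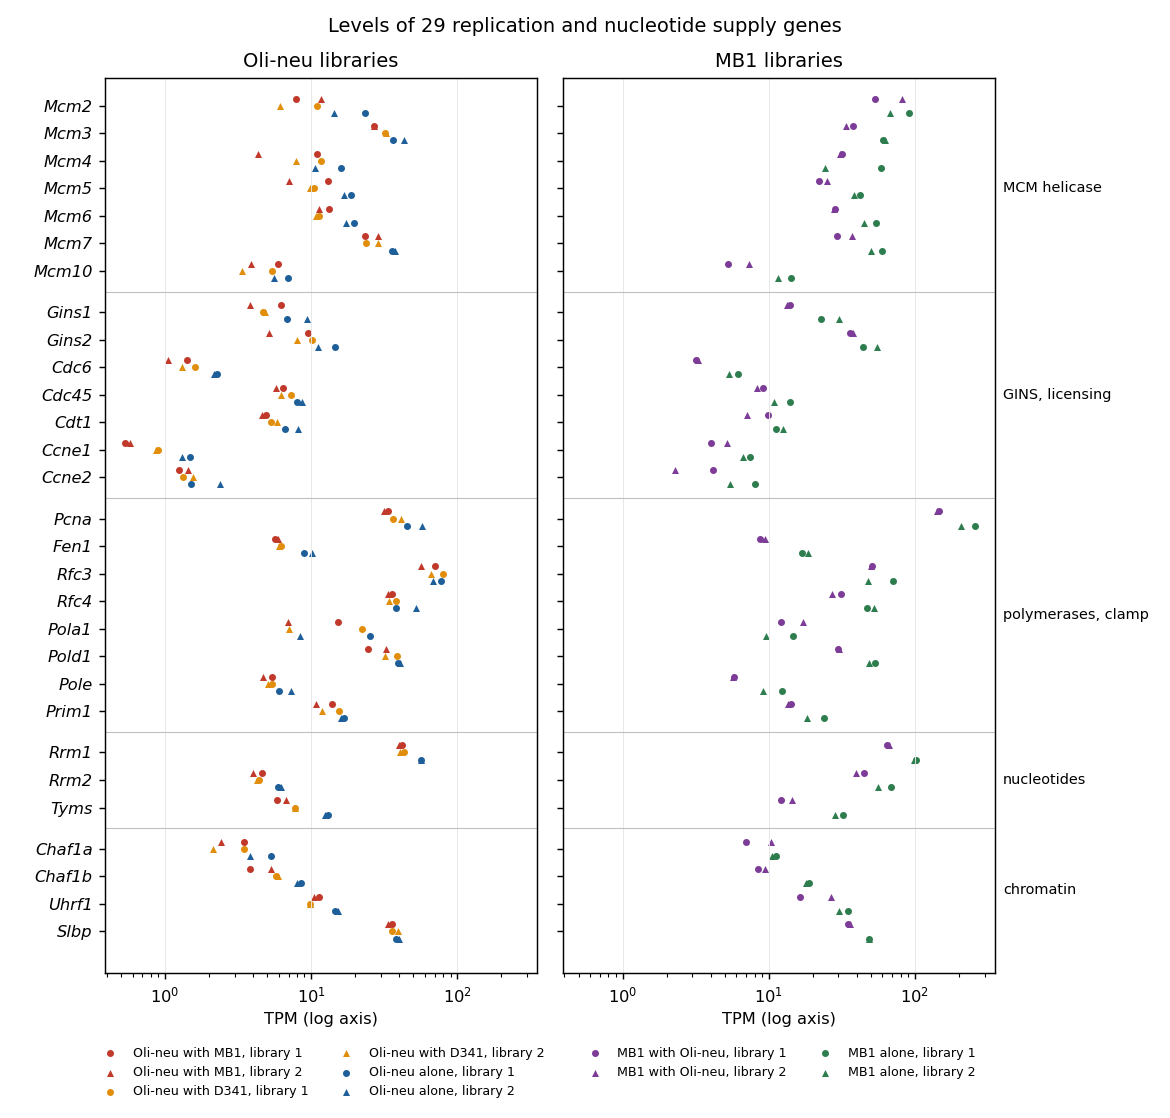
TPM on a log axis of each of the 29 genes in every mouse library, with Oli-neu on the left and MB1 on the right, circles for library 1 and triangles for library 2, and co-cultures drawn above monocultures within a row. Both monoculture libraries lie to the right of the co-cultures in both lines for 21 of the 29 genes (11.8% of all genes tested in both lines). Ccne1, which had to differ in Oli-neu, is among these 21. Pola1 separates library 1 from library 2 in Oli-neu.

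Positions given with gene identifiers are those of the GRCm38 annotation. The MCM ring unwinds DNA ahead of the fork, and Mcm10 helps to start it. All 7 of these genes had lower means in co-culture in both lines, with a median log2 fold change of -0.61 in Oli-neu beside either tumour line and -0.75 in MB1. Mcm6 (ENSMUSG00000026355, chr1:128331590-128359664), a ring subunit, stood at 13.3 and 11.3 TPM in Oli-neu beside MB1 and 11.3 and 10.9 TPM beside D341, against 19.8 and 17.4 TPM alone. In MB1 it stood at 28.6 and 28.1 TPM beside Oli-neu and 54.0 and 44.7 TPM alone. The groups did not overlap in either line. Averaged over both partners, the log2 fold change of Mcm6 was -0.63 ± 0.11 (SE) in Oli-neu (limma adjusted p = 0.395), and in MB1 it was -0.77 ± 0.16 (adjusted p = 0.282).

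Mcm3 (ENSMUSG00000041859, chr1:20802968-20820312), another ring subunit, stood at 26.9 and 26.8 TPM beside MB1, 32.3 and 32.4 TPM beside D341 and 36.3 and 43.0 TPM in Oli-neu alone. MB1 had 37.8 and 34.0 TPM of it beside Oli-neu and 60.7 and 62.2 TPM alone. Both lines thus showed separate groups, with the Oli-neu libraries beside MB1 the lowest. Its log2 fold change was -0.41 ± 0.11 in Oli-neu (limma adjusted p = 0.399) and -0.76 ± 0.15 in MB1 (adjusted p = 0.282). Mcm7 (ENSMUSG00000029730, chr5:138164583-138172422), whose gene overlaps Ap4m1 on the other strand, had 23.3 and 28.7 TPM beside MB1 and 23.8 and 28.5 TPM beside D341, against 35.7 and 37.7 TPM in Oli-neu alone. In MB1 it had 29.3 and 37.0 TPM beside Oli-neu and 59.3 and 50.1 TPM alone. Again no co-culture library reached a monoculture library. The log2 fold changes of Mcm7 were -0.48 ± 0.13 (limma adjusted p = 0.400) and -0.71 ± 0.19 (adjusted p = 0.282).

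Subunits of one ring were not at one level. Among Mcm2 to Mcm7, the highest exceeded the lowest by 2.27 to 6.60 times within an Oli-neu library and by 2.18 to 3.29 times within an MB1 library, on the TPM scale. Mcm3 was the highest in 5 of the 6 Oli-neu libraries and Mcm2 in all 4 MB1 libraries. Mcm2 and Mcm4 were described after their values were seen, because their replicates lay far apart. Mcm2 had 7.91 and 11.6 TPM beside MB1, 11.01 and 6.14 TPM beside D341 and 23.3 and 14.3 TPM in Oli-neu alone, and in MB1 53.8 and 82.3 TPM beside Oli-neu and 91.3 and 67.7 TPM alone. Its groups were apart in Oli-neu and overlapped in MB1, where the log2 fold change was -0.24 with a 95% interval of -0.95 to 0.48. Without the first MB1 library beside Oli-neu that value turned to 0.065. Mcm4 had 31.6 and 30.5 TPM in MB1 beside Oli-neu and 58.2 and 24.3 TPM in MB1 alone, and its fold change of -0.27 turned to 0.34 without the first of the MB1 libraries grown alone. The other 2 genes, Mcm5 of the ring and Mcm10, had log2 fold changes of -0.78 and -0.38 in co-cultured Oli-neu and -0.75 and -0.93 in MB1.

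Origin licensing and firing genes summed to 30.1 and 22.3 TPM in Oli-neu beside MB1, 31.4 and 28.7 TPM beside D341 and 41.4 and 43.1 TPM alone, the lowest sum of the 5 sub-groups in every Oli-neu library. Their median log2 fold change was -0.46 in Oli-neu beside either tumour line and -0.53 in MB1, and all 7 had lower means in both lines. Cdt1 (ENSMUSG00000006585, chr8:122568015-122573554), which loads the MCM ring with Cdc6, had 4.90 and 4.59 TPM beside MB1, 5.33 and 5.82 TPM beside D341 and 6.63 and 8.09 TPM in Oli-neu alone. MB1 held 9.89 and 7.06 TPM beside Oli-neu and 11.2 and 12.6 TPM alone. The co-cultures lay below the monocultures in both lines. The log2 fold change of Cdt1 was -0.44 ± 0.11 in Oli-neu (limma adjusted p = 0.398) and -0.46 ± 0.21 in MB1 (adjusted p = 0.358), where it was -0.24 without the second co-culture library.

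Cdc6 (ENSMUSG00000017499, chr11:98907801-98923940), its loading partner, stood at 1.41 and 1.04 TPM beside MB1 and 1.61 and 1.31 TPM beside D341, against 2.25 and 2.16 TPM in Oli-neu alone, and at 3.16 and 3.26 TPM in MB1 beside Oli-neu, against 6.19 and 5.36 TPM in MB1 alone. Ccne1 (ENSMUSG00000002068, chr7:38097984-38107534), the cyclin E that drives entry into S phase, was the lowest of the 29 genes in every Oli-neu library. It had 0.532 and 0.575 TPM beside MB1, 0.902 and 0.870 TPM beside D341 and 1.48 and 1.31 TPM in Oli-neu alone, so the 3 groups did not overlap. Only the libraries grown alone reached the 1 TPM of the filter, so its difference in Oli-neu is a description and its p supports nothing. Its mean beside MB1 was 39.7% of that alone, and beside D341 it was 63.5%. With 1 TPM added before the log, which shrinks differences of such low genes, the log2 fold change was -0.62 ± 0.15 beside MB1 (limma adjusted p = 0.715) and -0.34 ± 0.15 beside D341 (adjusted p = 0.382). MB1 held more of it, 4.02 and 5.20 TPM beside Oli-neu and 7.49 and 6.63 TPM alone. The other genes were the GINS subunits Gins1 and Gins2, the helicase partner Cdc45 and the second cyclin E, Ccne2. Their log2 fold changes ran from -0.64 for Gins1 to -0.28 for Ccne2 in Oli-neu, and from -0.89 for Ccne2 to -0.41 for Gins2 in MB1. Gins2 and Ccne2 overlap the genes Gse1 and Ints8 on the other strand, and whether the authors' counting used strand is not given in the sources used here. Ints8 stood at 29.8 to 52.0 TPM in Oli-neu and 23.3 to 42.4 TPM in MB1. Ccne2 stood at 1.25 to 2.37 TPM and 2.28 to 8.01 TPM, so its level and fold changes are uncertain without the strand setting.

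The polymerase and clamp genes had a median log2 fold change of -0.33 in co-cultured Oli-neu and -0.72 in MB1. Of these 8 genes, 8 had a lower mean in co-cultured Oli-neu, 7 once libraries were scaled by median ratios, and 7 had a lower mean in MB1. Fen1 (ENSMUSG00000024742, chr19:10199132-10204169), the nuclease that trims Okazaki fragments, had 5.67 and 5.96 TPM beside MB1, 6.23 and 5.99 TPM beside D341 and 8.97 and 10.1 TPM in Oli-neu alone. In MB1 it had 8.66 and 9.49 TPM beside Oli-neu and 16.9 and 18.5 TPM alone. Each co-culture library lay under each monoculture library of its line. Fen1 had a log2 fold change of -0.59 ± 0.09 in Oli-neu (limma adjusted p = 0.395) and -0.89 ± 0.15 in MB1 (adjusted p = 0.272). The Fen1 gene overlaps that of Gm10143 on the other strand.

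Pcna (ENSMUSG00000027342, chr2:132249162-132253314), the sliding clamp, was the highest of the 29 genes in every MB1 library, at 145 and 142 TPM beside Oli-neu and 258 and 207 TPM alone. Oli-neu had 33.4 and 31.5 TPM beside MB1, 36.3 and 41.1 TPM beside D341 and 45.1 and 57.5 TPM alone. The groups were separate in both lines, with log2 fold changes of -0.51 ± 0.14 in Oli-neu (limma adjusted p = 0.399) and -0.68 ± 0.17 in MB1 (adjusted p = 0.282). A near copy, the pseudogene Pcna-ps2, which is 99.2% identical over 781 bases, had 12.3 and 13.1 TPM in Oli-neu beside MB1, 16.0 and 13.4 TPM beside D341, and 20.9 and 20.0 TPM alone. The MB1 values were 0.586 and 0.595 TPM beside Oli-neu and 0.293 and 0 TPM alone. Reads of the 2 may have been shared between them in Oli-neu, so the Pcna level there is uncertain, while their sum kept the same order, with 45.7 and 44.6 TPM beside MB1, 52.3 and 54.5 TPM beside D341 and 66.0 and 77.5 TPM alone.

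Pole (ENSMUSG00000007080, chr5:110286306-110337474), the catalytic subunit of the leading strand polymerase, had 5.41 and 4.68 TPM beside MB1, 5.38 and 5.04 TPM beside D341 and 6.01 and 7.34 TPM in Oli-neu alone, and 5.81 and 5.73 TPM in MB1 beside Oli-neu, against 12.4 and 9.17 TPM in MB1 alone. Its difference in Oli-neu was small but in 1 direction across all libraries, at -0.32 ± 0.12 on the log2 scale (limma adjusted p = 0.419). Pold1, of the lagging strand polymerase, and Prim1, the primase, had fold changes of -0.33 and -0.32 in Oli-neu and -0.75 and -0.56 in MB1. The clamp loader genes Rfc3 and Rfc4 and the polymerase gene Pola1 were described after their values were seen. Rfc3 was the highest of the 29 genes in every Oli-neu library, with 69.9 and 56.8 TPM beside MB1, 79.6 and 65.9 TPM beside D341 and 76.8 and 68.5 TPM alone. The groups overlapped, and its fold change of -0.10 in Oli-neu beside either tumour line became 0.025 after median-ratio scaling. In MB1 it was -0.20, and 0.080 without the first library grown alone. Rfc4 had a fold change of -0.33 in Oli-neu, where 1 monoculture library lay among the co-cultures, and -0.75 in MB1, where the groups were apart.

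Pola1, the polymerase that starts each new strand, differed more between library numbers than between cultures. In Oli-neu it had 15.4 and 6.96 TPM beside MB1, 22.2 and 7.04 TPM beside D341 and 25.4 and 8.34 TPM alone, and in each pair the library numbered 1 held the higher value. Within each number both co-cultures lay below the library grown alone. Its fold change of -0.33 ± 0.65 in co-cultured Oli-neu turned to 0.42 without the first library grown alone and to 0.053 without the second library beside D341, each of which leaves the numbers unbalanced. In MB1 it was the only one of the 29 genes with a higher mean in co-culture, 12.1 and 17.1 TPM beside Oli-neu against 14.8 and 9.57 TPM alone, with overlapping groups and a fold change of 0.26 ± 0.28 that turned to -0.030 without the second library grown alone. The Oli-neu fold change was -0.44 within the libraries numbered 1 and -0.22 within those numbered 2.

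**Figure D5:**
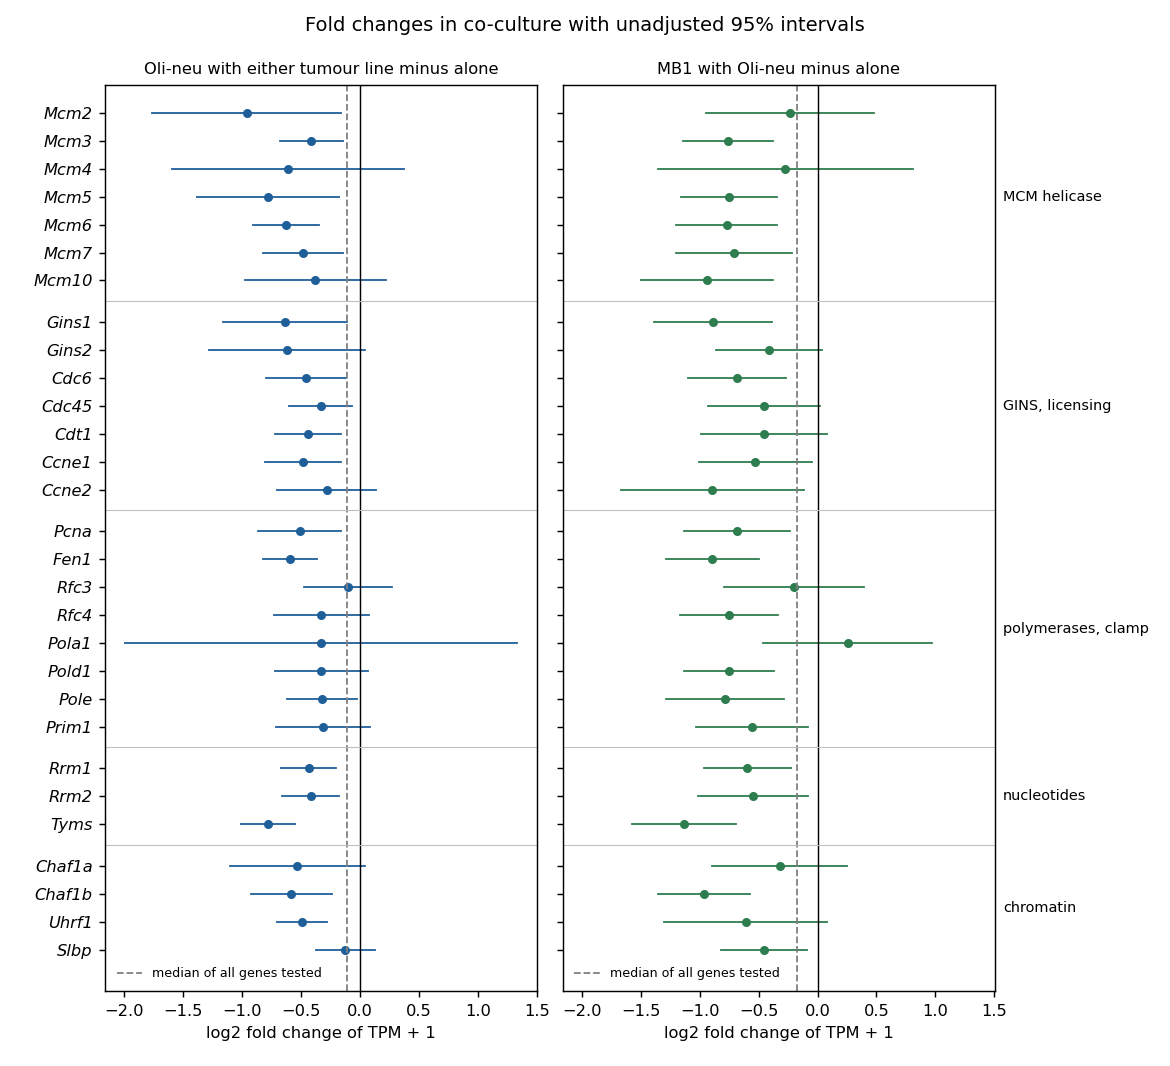
Log2 fold change of TPM + 1 for each of the 29 genes with its unadjusted 95% interval from limma, for Oli-neu beside either tumour line minus alone (left) and MB1 beside Oli-neu minus alone (right), with the median of all genes tested as a dashed line at -0.11 and -0.17. Tyms has the lowest value in MB1, and Pola1 has the widest interval in Oli-neu and the only value above 0 in MB1.

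Of the genes for nucleotide synthesis, all 3 lay lower in every co-culture library than in every library grown alone, in both lines. Tyms (ENSMUSG00000025747, chr5:30058202-30073617), thymidylate synthase, which makes the thymidine nucleotide, had 5.88 and 6.71 TPM beside MB1, 7.72 and 7.79 TPM beside D341 and 13.0 and 12.4 TPM in Oli-neu alone. In MB1 it had 12.1 and 14.4 TPM beside Oli-neu and 32.1 and 28.2 TPM alone. Its mean in MB1 beside Oli-neu was 43.9% of the mean alone, the lowest percentage of the 29 genes there. Tyms had the smallest p of the 29 genes in both lines, with a log2 fold change of -0.78 ± 0.09 in Oli-neu beside either line (limma adjusted p = 0.395) and -1.13 ± 0.17 in MB1 (adjusted p = 0.254). Coding transcripts of Tyms share stretches of at least 200 bases and 90% identity with transcripts of 174 other genes. The assignment of reads from these stretches, and with it the Tyms level, is uncertain.

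Rrm1 and Rrm2 code for the large and the small subunit of ribonucleotide reductase, which turns ribonucleotides into deoxyribonucleotides. Rrm1 (ENSMUSG00000030978, chr7:102441695-102469771) had 42.0 and 39.8 TPM beside MB1, 43.3 and 40.6 TPM beside D341 and 56.5 and 56.2 TPM in Oli-neu alone. In MB1 its level was 64.8 and 66.7 TPM beside Oli-neu and 102 and 97.9 TPM alone. The replicates of Rrm1 were close to each other in all 5 conditions, and its fold changes were -0.44 ± 0.09 in Oli-neu (limma adjusted p = 0.395) and -0.60 ± 0.14 in MB1 (adjusted p = 0.282). Rrm2 (ENSMUSG00000020649, chr12:24708241-24714146) had 4.61 and 3.98 TPM beside MB1, 4.40 and 4.28 TPM beside D341 and 5.95 and 6.25 TPM in Oli-neu alone. In MB1 it stood far higher, at 44.9 and 39.3 TPM beside Oli-neu and 68.6 and 55.6 TPM alone. Its fold changes were -0.42 ± 0.09 in Oli-neu (limma adjusted p = 0.395) and -0.55 ± 0.18 in MB1 (adjusted p = 0.299). On the TPM scale, Rrm1 exceeded Rrm2 by 8.99 to 9.999 times in the 6 Oli-neu libraries and by 1.44 to 1.76 times in the 4 MB1 libraries, with the ranges of co-cultures and monocultures overlapping within each line. A pseudogene of Rrm2, Gm48455, which is 97.1% identical over 245 bases, had 0.694 and 0.585 TPM in Oli-neu beside MB1, 0.551 and 0.625 TPM beside D341 and 1.78 and 1.72 TPM alone, and was listed at 0 in all 4 MB1 libraries. Whether reads were shared between them is unknown, so the Rrm2 level and this ratio are uncertain in Oli-neu.

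Chromatin assembly genes had a median log2 fold change of -0.51 in co-cultured Oli-neu and -0.53 in MB1. Uhrf1 (ENSMUSG00000001228, chr17:56303321-56323486), which guides DNA methylation to newly copied strands, had 11.3 and 10.5 TPM beside MB1, 9.77 and 9.77 TPM beside D341 and 14.6 and 15.3 TPM in Oli-neu alone. In MB1 it had 16.3 and 26.7 TPM beside Oli-neu and 35.1 and 30.1 TPM alone. The Oli-neu groups were tight and far apart, while in MB1 the second co-culture library came near the monocultures. Its fold changes were -0.49 ± 0.08 in Oli-neu (limma adjusted p = 0.395) and -0.61 ± 0.27 in MB1 (adjusted p = 0.347). The MB1 value was -0.27 without the first co-culture library and -0.95 without the second.

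Chaf1a and Chaf1b are the large and the middle subunit of CAF-1, which loads new histones behind the fork. Chaf1b (ENSMUSG00000022945, chr16:93883901-93906115) had 3.83 and 5.34 TPM beside MB1, 5.76 and 5.90 TPM beside D341 and 8.48 and 7.95 TPM in Oli-neu alone. In MB1 it had 8.48 and 9.38 TPM beside Oli-neu and 18.9 and 17.9 TPM alone. After Tyms it had the smallest p of the 29 genes in MB1 (fold change -0.96 ± 0.15, limma adjusted p = 0.254). In Oli-neu its fold change was -0.58 ± 0.13 (adjusted p = 0.395). Chaf1a (ENSMUSG00000002835, chr17:56040439-56072289) had 3.46 and 2.40 TPM beside MB1, 3.50 and 2.13 TPM beside D341 and 5.35 and 3.82 TPM in Oli-neu alone, and 6.97 and 10.4 TPM in MB1 beside Oli-neu against 11.3 and 10.5 TPM in MB1 alone. Its groups were apart in both lines, but in MB1 the second co-culture library lay just under the monocultures, and the fold change there was -0.32 ± 0.22. It was -0.065 without the first co-culture library and -0.58 without the second. The genes of Chaf1a and Slbp overlap those of Ubxn6 and Gm10459 on the other strand. In Oli-neu, Ubxn6 stood at 17.1 to 26.7 TPM, above Chaf1a in each library, so the Chaf1a level is uncertain without the strand setting. Slbp binds the stem-loop of histone mRNA. Its fold change in Oli-neu was -0.12, which median-ratio scaling brought to 0.0025, and in MB1 it was -0.45 with separate groups (34.9 and 35.9 TPM beside Oli-neu against 48.7 and 48.8 TPM alone).

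The 2 tumour partners were compared directly in Oli-neu. The median log2 fold change of the 29 genes beside D341, against beside MB1, was 0.11, where the median of all genes was -0.09. Of the 29, 23 had a higher mean and 6 a lower mean beside D341, while 68.5% of all genes tested had a lower mean. With median-ratio scaling 4 had a lower mean, Gins1 and Chaf1a having turned. Both libraries beside D341 lay above both beside MB1 for 7 of the 29, against 6.6% of all genes tested, and below for 2, against 28.8%. Only Tyms had an unadjusted limma p under 0.05 (higher, against 0.79% of all genes), with 7.72 and 7.79 TPM beside D341 and 5.88 and 6.71 TPM beside MB1 and a fold change of 0.27 ± 0.10 (adjusted p = 0.839). For Ccne1, which had the highest ratio of means, 160.0%, the fold change was 0.28 with a 95% interval of -0.09 to 0.65 (adjusted p = 0.839). The intervals of Rrm1 and Mcm6 were -0.24 to 0.30 and -0.46 to 0.19. The median rests on single libraries. It was 0.026 with 13 genes lower without the second library beside MB1, 0.039 with 11 genes lower without the first beside D341, and 0.16 without the second beside D341.

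MB1 and Oli-neu were fitted apart, so their levels are set side by side without a test. TPM are shares of a library, and the make-up of the libraries differed between the lines. Pseudogenes took 25.2% to 26.8% of TPM in MB1 and 36.0% to 38.2% in Oli-neu, for which the ratios given here are not corrected. For 26 of the 29 genes both MB1 libraries grown alone lay above both Oli-neu libraries grown alone, against 54.7% of the 11182 genes tested in both lines. Rfc3, Rfc4 and Pola1 were the exceptions. The ratio of means had a median of 2.18. It was highest for Rrm2 at 10.2, with 62.1 ± 9.16 TPM in MB1 alone and 6.10 ± 0.213 TPM in Oli-neu alone (SD, n = 2 each), followed by Ccne1 at 5.06, Pcna at 4.53 and Mcm2 at 4.23. The place of Pcna is uncertain, since Pcna and Pcna-ps2 together had 66.0 and 77.5 TPM in Oli-neu alone, against 258 and 207 TPM in MB1 alone. The lowest ratio was that of Pola1, 0.721, with overlapping libraries. MB1 beside Oli-neu still held 42.1 ± 3.98 TPM of Rrm2 and 144 ± 2.40 TPM of Pcna, above every Oli-neu condition, whereas Tyms in MB1 beside Oli-neu, at 13.2 ± 1.63 TPM, was near the 12.7 ± 0.372 TPM of Oli-neu alone.

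Other genes of DNA replication that are not among the 29 were read from the same fits. Of 77 such genes, 76 were tested in Oli-neu and 77 in MB1, and none passed the adjusted threshold of limma. In Oli-neu beside either tumour line 70 had a lower mean (72.6% of all genes tested), 37 did not overlap (18.7%) and 27 had an unadjusted p under 0.05 (9.83%), with a median log2 fold change of -0.26 beside -0.46 for the 29 genes. In MB1 73 had a lower mean (70.9% of all genes tested), 64 did not overlap (41.5%) and 35 had an unadjusted p under 0.05 (12.6%), with a median of -0.49 beside -0.68. The smallest p in Oli-neu belonged to Dut, which removes uracil nucleotides from the pool, with 19.1 and 19.5 TPM beside MB1, 22.8 and 21.4 TPM beside D341 and 29.1 and 32.2 TPM alone (fold change -0.55 ± 0.09, adjusted p = 0.395). Next came Tfdp1, the binding partner of E2F factors, with 12.5 and 10.5 TPM beside MB1, 10.9 and 10.9 TPM beside D341 and 16.5 and 16.5 TPM alone. Cad, which starts pyrimidine synthesis, had 5.00 and 4.39 TPM beside MB1, 4.80 and 4.55 TPM beside D341 and 8.25 and 6.79 TPM alone. Both libraries alone lay above all 4 co-cultures for each of these genes. The smallest p values in MB1 were those of the nuclease and helicase Dna2, with 1.87 and 1.80 TPM beside Oli-neu and 4.24 and 4.11 TPM alone, the histone chaperone Asf1b and thymidine kinase, Tk1. Asf1b had 6.06 and 3.76 TPM beside Oli-neu and 11.9 and 14.0 TPM alone, and Tk1 had 21.9 and 23.0 TPM beside Oli-neu and 36.4 and 40.4 TPM alone. Their adjusted p values were all 0.282. Between the partners in Oli-neu the replication genes had a median of 0.00, and the smallest p was that of the purine synthesis gene Atic, with 6.96 and 7.77 TPM beside D341 and 9.91 and 9.65 TPM beside MB1 (fold change -0.37 ± 0.10, adjusted p = 0.839).

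Genes of other cell cycle steps were set beside the 29. Of 20 mitosis genes, 19 had a lower mean in Oli-neu beside either tumour line (72.6% of all genes tested) and 20 in MB1 beside Oli-neu (70.9%). Their medians were -0.33 and -0.59, and 10 did not overlap in Oli-neu (18.7% of all genes tested) and 18 in MB1 (41.5%). Birc5, a part of the chromosome passenger complex, had 33.5 and 28.8 TPM beside MB1, 33.2 and 34.8 TPM beside D341 and 50.4 and 48.1 TPM in Oli-neu alone (fold change -0.58 ± 0.11, limma adjusted p = 0.395). The mitotic kinase Plk1 had 18.9 and 18.0 TPM in MB1 beside Oli-neu and 35.0 and 29.9 TPM in MB1 alone (fold change -0.78 ± 0.16, adjusted p = 0.282). Of 11 D-type cyclin, kinase and inhibitor genes, which act in G1, 10 were tested in each line, all but Cdkn1c in Oli-neu and all but Cdk6 in MB1. Of the 10, 9 had a lower mean in Oli-neu (72.6% of all genes tested) and 7 in MB1 (70.9%). Their medians were -0.18 and -0.27 beside the medians of all genes of -0.11 and -0.17. In Oli-neu, Cdk6 reached the 1 TPM of the filter only in the libraries grown alone (1.58 and 1.19 TPM). It therefore had to be lower there, and its part in that count and median is a description only. In MB1, 2 of the inhibitors, Cdkn1a and Cdkn1b, lay higher in both co-culture libraries than in both grown alone, as did 1358 of the 12407 genes tested. Of the 10 genes tested in MB1, 5 lay lower in both co-culture libraries (41.5% of all genes tested). Cdkn1a, named after its values were seen, had 318 and 253 TPM beside Oli-neu and 133 and 214 TPM alone (fold change 0.75 ± 0.28, limma adjusted p = 0.314). It was the only one of these 10 with an unadjusted p under 0.05 in the higher direction, against 375 of the 12407 genes tested. With median-ratio scaling the medians of the mitosis genes were -0.21 and -0.40, and those of the G1 genes -0.05 and -0.08. None of the mitosis or G1 genes passed the adjusted threshold in either comparison.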

How the data were processed

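Poly(A)-selected RNA was sequenced with a directional kit over 75 cycles on a NextSeq500, per the labels. The deposited values are TPM, which the authors gave per gene in 1 table for each line. The submitters' processing notes name Salmon 0.14.1, FastQC 0.11.8, MultiQC 1.7 and DESeq2 1.22.2 with GRCm38 and GRCh38. The counting's strand setting is not given in the sources used here. TPM keep no depth, so no counting interval is given, and the human table and protein sequences were not used here.

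The fits took log2 values, with 1 TPM added, of each gene that reached 1 TPM in no fewer than 2 libraries of its table. They were made by limma 3.58.1 (R 4.3.3) with a mean-variance trend and two-sided tests, and the code was tested on simulated data. The 6 Oli-neu libraries shared 1 fit and the 4 MB1 libraries another. P values were Benjamini-Hochberg adjusted over all genes of a comparison with a threshold of 0.05, and ± beside a fold change is the SE. With 2 libraries per group, p values measure only the spread between these libraries, whose origin the labels do not describe beyond the word biological. Tables were joined with Python 3.11.15 and pandas 2.3.3, near copies of members were sought with BLAST 2.17.0, and figures were drawn with matplotlib 3.10.9.

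The members and lists were chosen with earlier results of these data known. Full values are given for the 3 members of each sub-group with the smallest p in Oli-neu beside either tumour line, and up to 4 other genes of the replication, mitosis and G1 lists with the smallest p in a comparison were eligible to be named. Replicate numbers paired the Oli-neu libraries, where the correlations of deviations were 0.614, 0.618 and 0.593, but not those of MB1, where the correlation was -0.115. Alternatives were other pseudocounts, filters, scalings and variance models, a replicate block and leaving out each library.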

Additional observations from a re-analysis of the deposited data

How the results depend on the processing

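None of the 29 genes passed the adjusted threshold of limma in any comparison under any alternative, and the smallest adjusted p of one was 0.157. Replicate numbers as a block called 0 genes in each comparison, and in this balanced design the block cannot change a fold change. With the block, 21 of the 29 had an unadjusted p under 0.05 beside MB1 (10.6% of all genes), 17 beside D341 (20.9%), 23 beside either line (18.1%), 0 between the partners (9.07%) and 18 in MB1 (10.8%). The 29 include Ccne1, whose p in Oli-neu co-culture supports nothing, and no counts without it were taken with the block. A crossed pairing in MB1, chosen after seeing the data, called 0 genes.

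The number of all genes called was 0 as reported. Beside MB1 it was 3 when 0.1 TPM was added, 1 without a filter, 2 with median-ratio scaling, 1 without trend and 2 over protein-coding genes alone, which were chosen after seeing the data. Beside D341 it was 3 without a filter and 1 over protein-coding genes, and 0 to 2 with single libraries left out. For either line it was 2, 1 and 4 with the pseudocount of 0.1 TPM, median-ratio scaling and protein-coding genes. Between the partners it was 6 without a filter, 1 without trend and 1 over protein-coding genes. In MB1 it was 5 over protein-coding genes and 0 to 68 with single libraries left out.

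A pseudocount of 5 TPM moved the medians of the 29 genes to -0.37 beside MB1, -0.28 beside D341, -0.30 for either line, 0.053 between the partners and -0.53 in MB1. Median-ratio scaling moved them to -0.25 beside D341, 0.21 between the partners and -0.49 in MB1, a pseudocount of 0.1 TPM to -0.48 beside D341, and protein-coding genes to 0.12 between the partners. With single libraries left out, the medians ran from -0.56 to -0.40 beside MB1, -0.43 to -0.32 beside D341, -0.49 to -0.41 for either line, 0.026 to 0.16 between the partners and -0.74 to -0.57 in MB1, and 5 to 13 of the genes were lower between the partners. The cause of these shifts was not tested.

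Among 40 single-gene results run under every alternative, for either line and MB1, 8 values turned sign, and the cause was not tested. Beside D341 median-ratio scaling also turned Rfc3 to 0.18, Slbp to 0.11 and Pold1 to 0.0070. For either line, median-ratio scaling turned Rfc3 to 0.025 and Slbp to 0.0025, and with single libraries left out Pola1 ran from -1.08 to 0.42, above 0 without the second library beside D341 (0.053) or the first library alone. In MB1, with single libraries left out, Mcm2 ran from -0.54 to 0.065, Mcm4 from -0.88 to 0.34, Rfc3 from -0.48 to 0.080, and Pola1 from -0.030 to 0.55. In Oli-neu without the second library alone, Pcna was at -0.34 and Pole at -0.20. With 2 libraries per group and no counts, the precision of single genes is low.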
